A study of Mus musculus with 6 samples.

Results

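The genes described here build DNA at the replication fork. Their list holds 39 genes for the replicative polymerases, the sliding clamp and its loader, the single-strand binding complex, flap processing and ligation, helicase cofactors, nucleotide supply, chromatin assembly and fork protection. The MCM2-7 helicase subunits and the origin licensing genes are not on it. The list was drawn up with the contrast between the groups already known, so its counts and medians are descriptions. The probe set that stands for a gene was chosen on measured values, as the one with the highest mean log2 signal over the 6 arrays among probe sets annotated to 1 gene. Of the 39 genes, 38 were measured this way, out of 18194 genes in all, and Chaf1a was not analysed here.

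The arrays measured total RNA of CAD cells, an established catecholaminergic neuroblastoma line from mouse. All cells were transfected with a plasmid. The control group received the RI vector without an insert (empty vector), and the other group received the plasmid RIPmiR-124a-2, which carries a precursor of miR-124, a microRNA abundant in neurons. Each group had 3 biological replicates of this 1 cell line, and p-values measure the spread between those replicates. The labels used here give no time after transfection and no share of transfected cells.

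At a replication fork, a helicase opens the duplex and single-strand binding protein coats the exposed strands. Polymerase alpha with primase lays down primers, the clamp loader places the PCNA ring, and polymerases delta and epsilon extend the new strands. Flaps are then removed and nicks sealed, while histone chaperones rebuild chromatin behind the fork. Many of these genes are transcribed mainly around the start of S phase under E2F factors, and they are known to be low in cells that have left the cell cycle, as mature neurons have. In bulk RNA, fewer cells in S phase and less RNA per cell cannot be told apart.

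Ptbp1, a splicing repressor and known miR-124 target, checked the labels: its log2 signal was 12.0, 12.0 and 12.1 with the empty vector and 10.7, 10.6 and 11.0 with the plasmid (log2 fold change -1.24 ± 0.12 (SE), limma adjusted p = 0.00978). Of 14 catecholaminergic neuroblast markers, 13 were measured and all 13 lay above the highest control probe set for a transcript not added to the samples, 3.70 on the log2 scale. Their mean per array was 8.47 to 8.59 with the empty vector and 8.64 to 8.77 with the plasmid, and 0 of 13 passed. Of these 13, 8 had a mean log2 signal over 8. Among markers of fibroblasts, glia, immune cells, epithelium and endothelium, 0 of 22 measured genes had a mean log2 signal over 8 and 0 passed. Above 3.70 lay 4 of 6 fibroblast, 4 of 4 glial, 3 of 4 immune, 3 of 4 epithelial and 3 of 4 endothelial markers. Lying above 3.70 was thus not particular to the neuroblast markers. Empty vector replicate 1 and plasmid replicates 1 and 2 had a narrower spread of signals over all genes (interquartile range 3.06 to 3.10) than the other 3 arrays (3.26 to 3.35). These are called the narrow and the wide arrays below, and as the narrow set holds 1 empty vector array and the wide set 2, results are also given within each set.

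All 38 measured genes had a negative log2 fold change with the miR-124a-2 plasmid, against 8328 of the 18194 genes. Their median was -0.45 (quartiles -0.54 and -0.33), and the median of all genes was 0.02. As linear folds, the plasmid signals were lower by a median of 1.37 times, from 1.05 times for Tyms to 1.79 times for Dscc1, and 0 of 38 reached 2-fold. Log2 fold changes here are the plasmid mean minus the empty vector mean, and their errors are limma standard errors.

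Of the 38 members, 5 passed limma's test at an adjusted p under 0.05 over all genes, and each of these 5 fell: Rpa2, Cdc45, Mcm10, Tk1 and Rrm2. None rose, and 33 did not pass. Over all genes 127 fell (0.698%) and 38 rose (0.209%). At an unadjusted limma p under 0.05, 32 of 38 members were lower, where 5.79% of all genes were. The 3 plasmid arrays lay wholly below the 3 empty vector arrays in 28 members and wholly above in 0, where 7.76% of all genes lay wholly below and 8.50% wholly above. The lowest adjusted p among the members that did not pass was 0.0531, for Chaf1b, and the highest among the 5 that passed was 0.0451, for Tk1. The 5 calls depended on single arrays, as did the calls over all genes. With empty vector replicate 1, 2 or 3 or plasmid replicate 1 or 2 left out, the count of members was 0. Over all genes 51, 0, 0, 7 and 35 fell in these fits, in that order. Without plasmid replicate 3, 12 members and 305 of all genes (1.68%) fell. Across other scalings of the arrays the count of members ran from 0 (median centring) to 13 (cyclic loess), with all 38 members below 0 in each. Over all genes 76 (0.418%) and 224 (1.23%) fell with these 2 scalings.

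**Figure D1:**
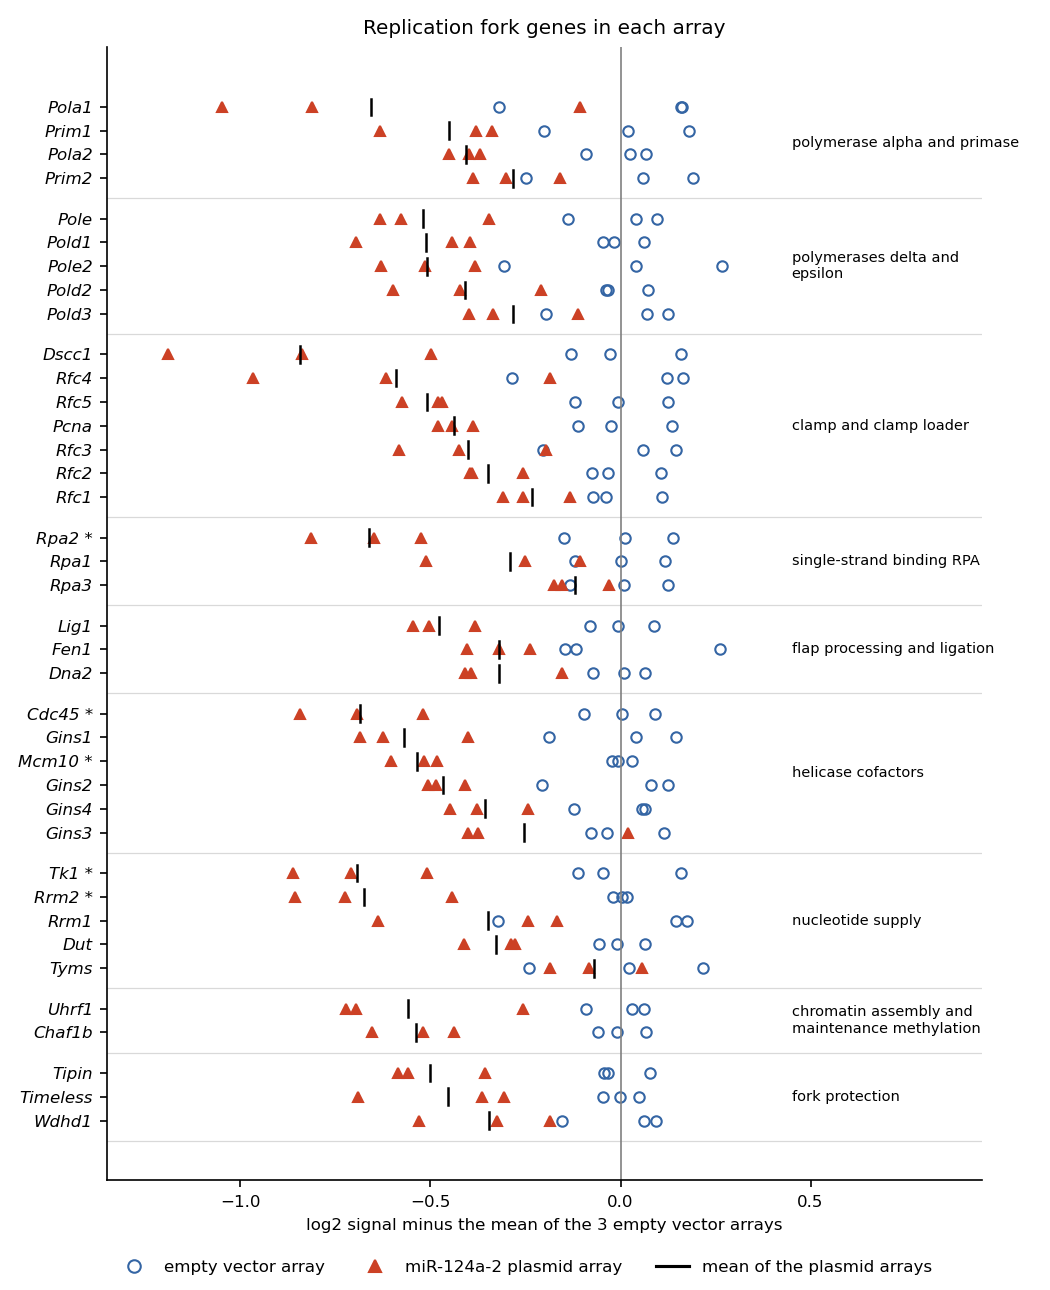
Log2 signal of each of the 38 genes in each array, as the difference from that gene's mean over the 3 empty vector arrays, grouped by role. Circles are empty vector arrays, triangles are miR-124a-2 plasmid arrays, the short bar is the mean of the 3 plasmid arrays, and an asterisk marks the 5 genes that passed; in 28 genes every triangle lies left of every circle.

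The shift was carried by all 3 plasmid arrays. The median deviation of the 38 genes from their empty vector means was -0.48, -0.52 and -0.37 in plasmid replicates 1, 2 and 3, and -0.08, 0.07 and -0.01 in the empty vector replicates. Over all genes, the same medians lay between -0.02 and 0.04 in all 6 arrays. In 36 of the 38 members, each plasmid array was below the empty vector mean. The share of all genes with this pattern was not counted. Plasmid replicate 3 was the highest of its group in 30 members and replicate 2 the lowest in 24, while empty vector replicate 1 was the lowest of its group in 24.

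**Figure D2:**
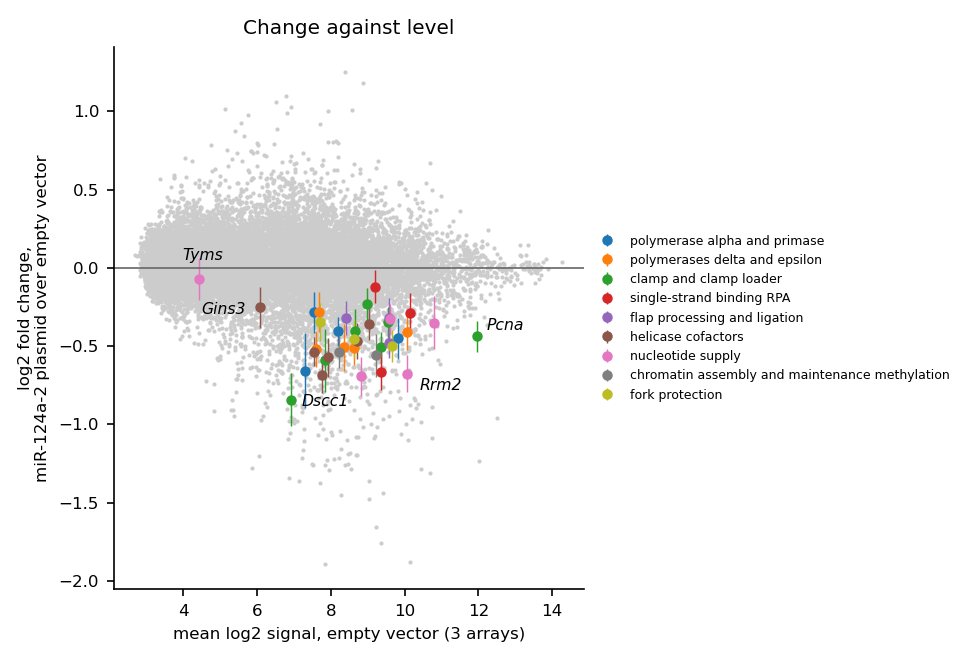
Log2 fold change (vertical, plasmid minus empty vector) against the mean log2 signal of the 3 empty vector arrays (horizontal) for 18194 genes in grey and the 38 members coloured by role, with bars of 1 standard error. All 38 members lie below 0, and 28 of them are among the lowest 5% of all changes.

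Promoter sequences were taken from RefSeq (GRCm38.p6), as windows from 250 bases before to 50 bases after an annotated start site. The 30 matched members had 35 windows, as some genes have more than 1 start site. Of these, 18 lay at the gene's outermost annotated start and 17 at a start site inside the gene, from 1 base (Chaf1b) to 6003 bases (Timeless) further in. An E2F site was searched on both strands by 4 spellings, TTTCCCGC, TTTCGCGC, TTTGCCGC and TTTGGCGC, none of which contains another motif searched. E2F factors bind such sites upstream of many S phase genes. These letters were found in 8 of 30 members (26.67%): Gins3, Lig1, Pola1, Pold1, Pold3, Pole2, Rfc3 and Uhrf1. Not all of these matches lie upstream. In Pole2, Pold3, Lig1 and Pold1 the match begins after the window's start site, at base 11, 18, 27 and 40 in that order. Of 14453 genes on the arrays with a window, 550 held one (3.805%). With only the outermost window of each gene, the counts were 6 of 30 members (20%) and 492 genes on the arrays (3.404%), since the Lig1 and Uhrf1 matches lie in windows of inner start sites. The 8 holders had a median log2 fold change of -0.49 and the other 22 a median of -0.42. Below, the 4 matched stretches that lie before their window's start site are printed 5′ to 3′ on the gene's strand, with the matched letters in capitals. A match is a description of letters and no evidence of binding.

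The stretch of Gins3, a subunit of the GINS helicase cofactor, lies at chr8:95633493-95633550 on the plus strand, that of Pola1, the catalytic subunit of polymerase alpha, at chrX:93632261-93632318 on the minus strand. That of Rfc3, a clamp loader subunit, lies at chr5:151651209-151651243 on the minus strand, and that of Uhrf1, which guides maintenance methylation, at chr17:56304103-56304160 on the plus strand. The Uhrf1 window belongs to a start site 976 bases inside the outermost one and the Pola1 window to a start site 232 bases inside, so both of these stretches lie within the annotated gene. The Gins3 and Rfc3 stretches lie upstream of the outermost start.
Gins3: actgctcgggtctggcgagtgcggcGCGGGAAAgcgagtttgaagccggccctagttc
Pola1: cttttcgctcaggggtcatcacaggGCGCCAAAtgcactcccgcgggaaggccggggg
Rfc3: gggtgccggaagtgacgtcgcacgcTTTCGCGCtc
Uhrf1: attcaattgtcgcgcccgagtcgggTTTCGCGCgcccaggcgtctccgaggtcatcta

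None of the 5 genes that passed held one of the 4 E2F spellings in its window. A CCAAT box, searched as CCAAT on both strands and bound by the factor NF-Y, was found in 15 of 30 members (50%) and in 42% of genes on the arrays (38.35% with only the outermost windows). It was present in 4 of the 5 genes that passed, Cdc45, Mcm10, Rpa2 and Rrm2, whose stretches are shown for that reason. The cell cycle element CHR, searched as TTTGAA on both strands, was found in 4 of 30 members (13.33%) and in 15.66% of genes on the arrays. The median GC content of the windows was 63% in members and 58.33% in genes on the arrays, which bears on how often GC-rich spellings are met. Among the 4 stretches, Cdc45 lies at chr16:18811973-18812010 and Mcm10 at chr2:5012792-5012839, both on the minus strand, and Rpa2 at chr4:132768283-132768337 and Rrm2 at chr12:24708179-24708233, both on the plus strand. Capitals mark CCAAT or its reverse complement.
Cdc45: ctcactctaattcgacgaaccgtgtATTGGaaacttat
Mcm10: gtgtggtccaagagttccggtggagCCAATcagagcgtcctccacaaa
Rpa2: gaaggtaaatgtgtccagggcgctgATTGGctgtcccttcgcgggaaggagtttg
Rrm2: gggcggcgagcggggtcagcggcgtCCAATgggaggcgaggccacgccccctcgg

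Among the 6 helicase cofactors, which join the MCM ring to form the active helicase, 2 fell, 4 did not pass and the median log2 fold change was -0.50. Cdc45, the subunit that completes the helicase with MCM and GINS, had log2 signals of 7.76, 7.85 and 7.66 with the empty vector and 7.06, 6.91 and 7.24 with the plasmid. The lowest empty vector array was clear of the highest plasmid array. Its log2 fold change was -0.69 ± 0.11 (adjusted p = 0.0359), the smallest adjusted p of the members. Mcm10, which binds the helicase as the origin fires, had signals of 7.52, 7.53 and 7.57 against 7.02, 6.94 and 7.06. Its arrays agreed closely within each group, with SDs of 0.03 and 0.06, and the groups were far apart relative to that spread (-0.53 ± 0.09, adjusted p = 0.0383). The GINS complex holds the helicase together through 4 subunits, and none of the 4 passed: Gins1 had a log2 fold change of -0.57, Gins2 of -0.47, Gins4 of -0.36 and Gins3 of -0.25. Gins1, Gins2 and Gins4 had no overlap between groups. In Gins3, plasmid replicate 1 (6.10) lay among the empty vector arrays (6.20, 6.00 and 6.04), while plasmid replicates 2 and 3 were at 5.68 and 5.71. The other probe set of Gins3, 0.33 log2 units dimmer, gave -0.52 without overlap (5.98, 5.84 and 5.83 against 5.46, 5.11 and 5.52). The smaller change of Gins3 and its overlap thus belong to the brightest probe set.

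For the polymerase alpha and primase complex, which makes the primers, the median of the 4 subunits was -0.43 and 0 passed. Pola1, its catalytic subunit, had signals of 6.97, 7.46 and 7.46 with the empty vector and 6.48, 6.25 and 7.19 with the plasmid. Plasmid replicate 3 lay above empty vector replicate 1, so the groups overlapped. Its log2 fold change of -0.66 ± 0.24 was the largest of this complex, and with SDs of 0.28 and 0.49 its adjusted p was 0.323. With the mean of its probe sets the change was -0.35. Mcm10 passed with a smaller change, with a standard error of 0.09 against 0.24 for Pola1. Prim1, the catalytic primase subunit, had a log2 fold change of -0.45, Pola2, the regulatory subunit of the polymerase, of -0.41, and Prim2, the large primase subunit, of -0.28. Prim1 and Pola2 showed no overlap, whereas Prim2 did.

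The 5 subunits of polymerases delta and epsilon, which copy the lagging and the leading strand, had a median of -0.51 and 0 passed. Pole, the catalytic subunit of polymerase epsilon, had signals of 7.45, 7.63 and 7.69 with the empty vector and 7.01, 6.96 and 7.25 with the plasmid. All plasmid arrays were below all empty vector arrays. Its log2 fold change was -0.52 ± 0.12 with an adjusted p of 0.0915. Pold1, the catalytic subunit of polymerase delta, and Pole2, the second subunit of polymerase epsilon, were each at -0.51, and Pold2, which links the delta subunits, was at -0.41. Pold3, the delta subunit that binds PCNA, was the smallest at -0.28 and the only 1 of these 5 whose groups overlapped.

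The sliding clamp and its loader gave 7 members with a median of -0.44, and 0 passed. Dscc1, a subunit of the alternative loader that acts in sister chromatid cohesion, had signals of 6.80, 7.09 and 6.90 with the empty vector and 5.74, 6.09 and 6.43 with the plasmid. The groups did not overlap, and the plasmid arrays were spread over a wider range than the controls. The log2 fold change of -0.84 ± 0.17 was the largest of the 38 members by brightest probe set, and its adjusted p was 0.0697. A dimmer probe set of Dscc1 gave -0.04 and the mean of the pair -0.44, which is smaller than the -0.71 of Rrm2 by the same rule. Pcna, the clamp that tethers the polymerases, had signals of 11.84, 12.09 and 11.93 against 11.47, 11.51 and 11.57. The 3 plasmid arrays lay close together and below each control (-0.44 ± 0.10, adjusted p = 0.103). Of the 5 subunits of replication factor C, the canonical loader, Rfc4 had a log2 fold change of -0.59, Rfc5 of -0.51, Rfc3 of -0.40, Rfc2 of -0.35 and Rfc1, the large subunit, of -0.23. Rfc4 and Rfc3 overlapped between groups and the other 3 did not.

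Replication protein A, the 3-subunit complex that coats single-stranded DNA, was uneven, with 1 subunit that fell and 2 that did not pass. Rpa2, the middle subunit, had signals of 9.21, 9.49 and 9.37 with the empty vector and 8.54, 8.71 and 8.83 with the plasmid. The groups were separated by more than the range within either (-0.66 ± 0.12, adjusted p = 0.0443). Rpa1, the large subunit that carries most of the DNA binding, had a log2 fold change of -0.29, and Rpa3, the small subunit, of -0.12 ± 0.10 (adjusted p = 0.793). Both overlapped between groups. Whether Rpa2 changed by another amount than Rpa1 and Rpa3 was not tested.

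Maturation of the lagging strand was covered by 3 members with a median of -0.32, and 0 passed. Lig1, the ligase that seals Okazaki fragments, had signals of 9.49, 9.56 and 9.65 with the empty vector and 9.06, 9.02 and 9.18 with the plasmid. No array of the groups overlapped, and the log2 fold change was -0.48 ± 0.10 (adjusted p = 0.0714). Fen1, the flap endonuclease, and Dna2, a nuclease and helicase for long flaps, were each at -0.32, and neither overlapped.

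Of the 5 members that supply nucleotides, 2 fell, and the median was -0.35. Tk1, the thymidine kinase of proliferating cells, had signals of 8.71, 8.99 and 8.78 with the empty vector and 7.96, 8.12 and 8.32 with the plasmid. Each plasmid array was lower than each control, with a log2 fold change of -0.69 ± 0.12 (adjusted p = 0.0451). Rrm2, the S phase subunit of ribonucleotide reductase, which makes deoxyribonucleotides, had signals of 10.09, 10.08 and 10.05 against 9.35, 9.22 and 9.63. All plasmid arrays were below all controls, with an SD of 0.02 among the controls and 0.21 among the plasmid arrays (-0.68 ± 0.12, adjusted p = 0.0443). Its partner Rrm1, the large subunit, had signals of 10.47, 10.97 and 10.94 against 10.16, 10.55 and 10.63. Plasmid replicates 2 and 3 lay above empty vector replicate 1, and the log2 fold change was -0.35 ± 0.17 (adjusted p = 0.531). That overlap belongs to the brightest probe set. A second probe set of Rrm1, 0.36 log2 units dimmer, gave -0.42 without overlap (10.32, 10.54 and 10.55 against 10.05, 9.93 and 10.18). The third, 7.49 log2 units dimmer than the brightest, gave -0.02. Dut, which removes dUTP, was at -0.33 with no overlap.

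Tyms, thymidylate synthase, which makes the thymidine nucleotide de novo, gave signals of 4.19, 4.45 and 4.64 with the empty vector and 4.34, 4.24 and 4.48 with the plasmid. The arrays of the groups were interleaved (-0.07 ± 0.13, adjusted p = 0.926), and this is the one member whose sign turned under other settings. All 4 of its probe sets were dim, and this level lay near the 3.70 of the control probe sets, so a change of the size seen in other members may not have been detectable at this signal.

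Behind the fork, Uhrf1, which brings the maintenance methyltransferase to hemimethylated DNA, had signals of 9.13, 9.25 and 9.28 with the empty vector and 8.50, 8.52 and 8.96 with the plasmid. The groups did not overlap, although plasmid replicate 3 lay nearer to the controls than to its own group (-0.56 ± 0.14, adjusted p = 0.128). Chaf1b, a subunit of the chromatin assembly factor that deposits histones on new DNA, had a log2 fold change of -0.54 and no overlap. The 3 fork protection genes had a median of -0.45, and 0 passed. Tipin, which with Timeless stabilises paused forks, had signals of 9.62, 9.74 and 9.63 against 9.11, 9.08 and 9.31. The plasmid arrays were all lower (-0.50 ± 0.10, adjusted p = 0.0714). Timeless was at -0.45 and Wdhd1, which couples polymerase alpha to the helicase, at -0.35, neither with overlap.

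The shift was present within each array set. Within the narrow arrays, the median of the 38 log2 differences was -0.45 and 37 were below 0, and within the wide arrays it was -0.35 and all 38 were below 0. Of all 18194 genes, 9337 were below 0 within the narrow arrays and 9157 within the wide ones, with medians of -0.007 and -0.001. The 5 genes that passed ranged from -0.81 (Rrm2) to -0.54 (Mcm10) within the narrow arrays and from -0.60 (Rpa2) to -0.43 (Rrm2) within the wide ones. In 26 members the difference was larger in the narrow set, and for Pola1 it was -0.61 there and -0.27 in the wide set. By brightest probe set, the groups overlapped in 10 members. Of these, 7 had empty vector replicate 1, the narrow control, as the lowest of its group. In 7 of the 10, plasmid replicate 3, the wide plasmid array, was the highest of its group. In 31 of 38 members the wide arrays were higher than the narrow ones after allowing for group, against 42.7% of all genes.

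With the array set as a block, 13 members fell and 0 rose, and the median was -0.41. Over all genes, 1.58% fell and 1.42% rose in that fit. The 18S ribosomal RNA controls moved with the sets, at 4.71 to 4.87 in wide arrays and 5.23 to 5.83 in narrow ones. The transferrin receptor controls had a 3′ minus 5′ signal of 0.95 to 1.02 in wide arrays and 1.09 to 1.55 in narrow ones. Whether RNA integrity had a part in the members' differences was not tested. Each set holds arrays of both groups, and the members' median was below 0 within each. Both within-set differences rest on 1 array of 1 group, empty vector replicate 1 in the narrow set and plasmid replicate 3 in the wide set.

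**Figure D3:**
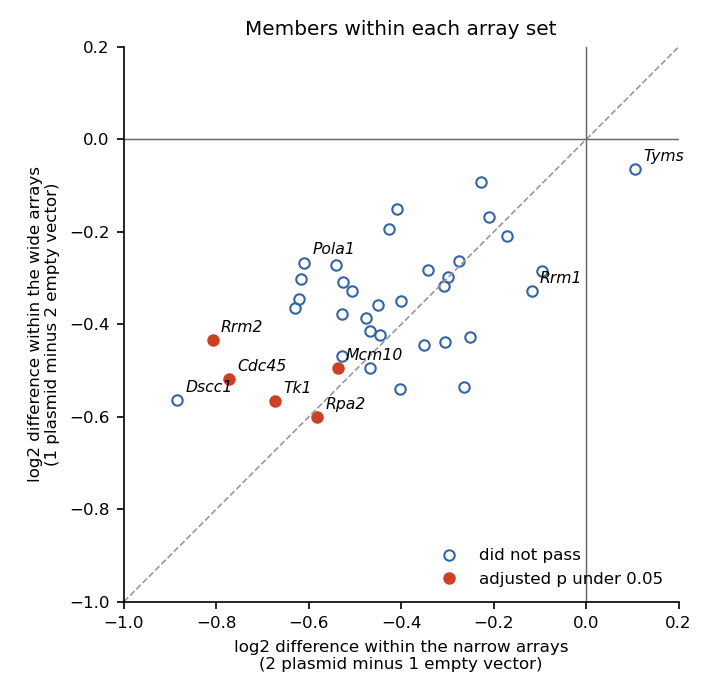
Log2 difference between plasmid and empty vector within the narrow arrays (horizontal, 2 plasmid and 1 empty vector array) and within the wide arrays (vertical, 1 plasmid and 2 empty vector arrays) for each of the 38 members; red points passed and open points did not, and the dashed line marks equal differences. Tyms is the only 1 right of 0, and all 38 lie below 0 on the vertical axis.

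Of the 38 members, 28 had more than 1 probe set, which the choice of the brightest left aside. These 39 other probe sets had a median log2 fold change of -0.27, with 35 below 0 and 4 above. Where the other probe set was within 2 log2 units of the brightest, 22 of 23 were below 0 with a median of -0.42. Among the 16 that were dimmer than that, 13 were below 0 with a median of -0.05. The 3 probe sets of Rrm2 gave -0.68, -0.76 and -0.69, and the pair for Rpa2 gave -0.66 and -0.61. For Cdc45 the second probe set, 1.37 log2 units dimmer, gave -0.13 against -0.69, and for Fen1 it gave -0.67 against -0.32. The other probe sets of Mcm10, each over 2 log2 units dimmer, gave -0.26 and -0.05 against -0.53. With the mean of each gene's probe sets, 4 members fell, Rpa2, Rrm2, Tk1 and Fen1, while Cdc45 (-0.41) and Mcm10 (-0.28) did not pass. All 34958 probe sets annotated to 1 gene were also fitted together. No probe set of a member passed in that fit, where their lowest limma adjusted p was 0.0669 (Cdc45, Mcm10 and 1 probe set of Rrm2). How many of all probe sets passed is not given here, and this fit is not among the alternatives described below. Dna2, Pola2, Pole2 and Tyms had probe sets of both signs. Overlap between groups also depended on the probe set. Within 2 log2 units of the brightest, Prim2, Pold3, Rfc3, Rfc4, Rpa1, Gins3 and Rrm1 each had another probe set without overlap. Prim1, Rfc1, Uhrf1 and Cdc45, without overlap by brightest probe set, each had another in that range with overlap. The brightest probe sets of Fen1, Rrm2, Pold1 and Gins2 are of classes that can match other transcripts, so their values may include signal of related sequences.

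**Figure D4:**
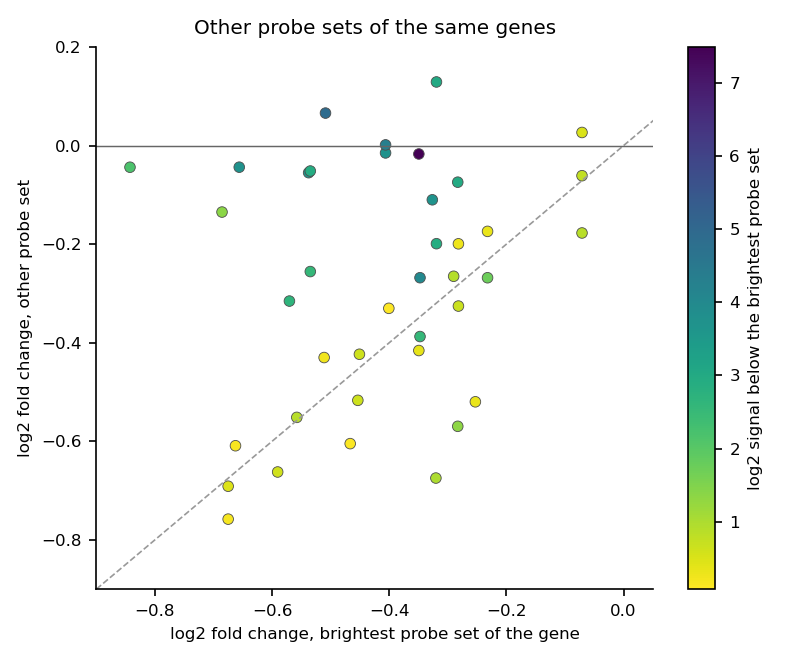
Log2 fold change of the 39 other probe sets (vertical) against that of the brightest probe set of the same gene (horizontal), coloured by how far the other probe set's mean log2 signal lay below the brightest; the dashed line marks equality. Of the 23 probe sets within 2 log2 units, 22 are below 0, and the points near 0 on the vertical axis are mostly dark, that is dim.

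Beyond the 38 members, 8 lists of related genes held 78 measured genes, of which 7 fell and 0 rose, with 61 below 0 and a median of -0.30. Of the 6 MCM2-7 genes, 3 fell: Mcm2 (-0.999), Mcm4 (-0.76) and Mcm5 (-0.67), and the median was -0.66. Among 14 origin licensing and firing genes, 2 fell: Cdc6, which loads the helicase, by 1.22 and Orc2, a subunit of the origin recognition complex, by 1.08 on the log2 scale, with a median of -0.43. The E2F and pocket protein list had 2 of 13 genes that fell, the repressors E2f7 (-0.92) and E2f6 (-0.54), and a median of -0.41. As with the members and with all genes, these 7 calls turned on single arrays. Without empty vector replicate 2 or 3 or plasmid replicate 1 the count was 0, where 0, 0 and 7 of all genes fell. Without empty vector replicate 1 or plasmid replicate 2 it was 2, where 51 and 35 of all genes fell. Without plasmid replicate 3 it was 17, where 305 of all genes fell (1.68%).

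In the other 5 lists 0 genes passed. Accessory and fork factors outside the members had a median of -0.27 (13 genes), where the checkpoint-linked clamp unloader Atad5 had the largest change at -1.09. Histone supply and DNA methylation genes had a median of -0.35 (7 genes), led by the chromatin remodeller Hells at -0.67. Nucleotide supply genes outside the members had a median of -0.19 (9 of 10 measured), with Umps, which makes uridine monophosphate, at -0.46. Genes of mitochondrial replication had a median of -0.18 (6 genes), with the mitochondrial helicase Twnk at -0.24. Translesion and repair polymerases had a median of 0.11 (10 genes, 6 above 0), with Mad2l2, a subunit of polymerase zeta, the largest at -0.63. Differences between these lists and the members were not tested.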

How the data were processed

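Per the labels' protocols, 6 ug of Trizol-extracted total RNA per sample gave biotinylated cRNA for 6 Affymetrix arrays. The deposited values are log2 signals per probe set, computed by the authors with RMA, as the submitters' processing notes state; its version and the probe definition are not given in the sources used here. Arrays give no read depth, and their number limits the precision. Of 45101 probe sets, 34958 were annotated to 1 gene (platform annotation), 932 to several and 9211 were not listed; only the first were used. Where a gene had several, the one of highest mean signal across the arrays was kept, which gave 18194 genes.

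Groups were taken from the sample descriptions and compared by limma 3.58.1 under R 4.3.3, using lmFit then eBayes in a two-sided test without any block, with p-values adjusted by Benjamini and Hochberg's method across the 18194 genes; an adjusted p under 0.05 is called passing. The fit was tested on simulated data. The members, the lists, the settings and the array sets (arrays divided at the largest gap in interquartile range) and the poly-A sets (divided likewise by the mean signal of poly-A control transcripts, with replicate 1 of both groups apart from the rest; no label records either) were chosen with earlier results of these data known, and no list was tested as a set.

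Values in every array are given for members that passed, the member with the largest change in each role, those with the highest and lowest empty vector mean and any of opposite sign; Rrm1, as the partner of Rrm2, and Gins3 were added after their values were seen. From each other list, up to 3 genes that passed are named, or else the 1 with the largest change. Alternatives were the replicate number, array set or poly-A set as a block, other scalings, an intensity trend, leaving out dim genes, other rules for probe sets, a stricter threshold and leaving out arrays. Mature miRNA sequences were not used here.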

Additional observations from a re-analysis of the deposited data

How the results depend on the processing

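The median log2 fold change of the 38 members lay between -0.51 and -0.40 under the 19 alternatives, at least 37 were below 0 in each, and 0 rose in any; the members below 0 were all 38 in 16 of the 19. The count of members that fell, 5 as reported, was less stable. It was 10 with the replicate block, 13 with the array set block, 7 with the poly-A set block, 12 after quantile normalization, 13 after cyclic loess, and 12 with an intensity trend, robust or not. It was 4 with the mean of a gene's probe sets (Cdc45 and Mcm10 left, Fen1 entered) and 5 after the filter on dim genes. It was 0 after median centring, 0 with each gene's most variable probe set, 0 at an adjusted p under 0.01 and 0 with replicates 2 and 3 alone, and leaving out 1 array gave 0 to 12. In the 9 settings with 0, 25 to 33 members were lower at an unadjusted limma p under 0.05, against 3.80% to 6.66% of genes. Some of these settings have fewer arrays or a stricter threshold by construction, and for the others the cause was not tested. Of the members, 17 passed in at least 1 alternative and 21 in none. The share of all genes that passed in at least 1 alternative was not computed, so these 2 counts are descriptions only.

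Tyms, at -0.07, turned to 0.021 with the array set block, 0.027 with its most variable probe set and 0.038 without empty vector replicate 3; leaving out 1 array gave -0.19 to 0.038, and the cause was not tested. Over all genes, 127 fell and 38 rose as reported. These counts were 305 and 152 with the replicate block, 287 and 259 with the array set block, 190 and 100 with the poly-A set block, 212 and 99 after quantile normalization, 224 and 88 after cyclic loess, 204 and 66 with an intensity trend (201 and 65 robust), 76 and 23 after median centring, 91 and 19 with the mean of probe sets, 41 and 10 with the most variable probe set, and 14 and 3 at an adjusted p under 0.01. With replicates 2 and 3 alone both were 0, and leaving out 1 array gave 0 to 305 and 0 to 38. The labels do not say whether same-numbered replicates were paired. Deviations of same-numbered arrays correlated at 0.54, -2.6e-05 and 0.55 for replicates 1, 2 and 3. Empty vector replicate 2 correlated best with plasmid replicate 3 (0.31). Whether the replicate numbers pair the samples is therefore not settled here.

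Signal over background limits dim members such as Tyms. Of the 38 members, 13 had a limma adjusted p under 0.1. The share of all genes under 0.1 is not given here, so this count is a description only.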
